A study of Homo sapiens with 12 samples.

Results

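Expression of the glutathione and GPX4 arm of the defence against ferroptosis was examined in 786-O, a widely used human cell line derived from clear cell renal carcinoma and without functional VHL. The 9 genes were taken by name from the 58381 rows of the deposited table, which gives TMM-normalized CPM, reads scaled to library size, and all 9 were found: SLC7A11, SLC3A2, GCLC, GCLM, GSS, GSR, GPX1, GPX4 and AIFM2. All 12 libraries came from 786-O cells grown in DMEM with 10% FBS and infected with a lentivirus. The virus carried a hairpin against GFP in the control group (shGFP) and 1 of 3 different hairpins against RARRES2, which encodes chemerin, a secreted adipokine, in the others (shRARRES2_1, shRARRES2_2 and shRARRES2_3), with 3 libraries in each of the 4 groups. There was no uninfected group. The labels do not say that replicates came from separate cultures, so a p-value here reflects only how far these libraries spread, and that spread may be technical.

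Ferroptosis is a form of cell death driven by peroxidation of membrane lipids. SLC7A11 and SLC3A2 form the transporter that brings cystine into the cell, glutamate-cysteine ligase (catalytic subunit GCLC, modifier subunit GCLM) and glutathione synthetase (GSS) build glutathione from its cysteine, and glutathione reductase (GSR) returns oxidized glutathione to its reduced form. The selenoenzyme GPX4 spends glutathione to reduce lipid hydroperoxides in membranes, GPX1 uses it on soluble peroxides, and AIFM2 (FSP1) works beside them by regenerating reduced coenzyme Q. Clear cell renal carcinoma lines, 786-O among them, are known for their sensitivity to loss of GPX4 activity.

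Both glutathione peroxidases read a TGA codon as selenocysteine, the residue at their active site. The coding sequence around that codon is shown because the 2 genes share this feature and are set against each other below. The lines give 63 bases from the GENCODE 29 transcripts in sense, with the TGA in capitals, which lies at 49358132 to 49358134 of chromosome 3 (minus strand) for GPX1 and at 1105403 to 1105405 of chromosome 19 (plus strand) for GPX4, both in GRCh38.
GPX1: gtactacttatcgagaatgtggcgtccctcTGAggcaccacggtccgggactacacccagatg
GPX4: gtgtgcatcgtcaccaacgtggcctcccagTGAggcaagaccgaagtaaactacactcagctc
Of these 63 positions, 37 were identical between the 2 genes.

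The antioxidant response element, the DNA word bound by the stress regulator NRF2, was sought because several of these genes are textbook NRF2 targets. No promoter window was available for SLC7A11, GSS and GSR. The letters TGACNNNGC, on either strand, occurred in the promoter window (250 bases before to 50 after the RefSeq start, GRCh38.p14) of 3 of the 6 genes with such a window. Because a gene can have several starts, these genes had 10 windows, 3 of which held the element, against 13.3% of all 35116 windows. The matches are printed in the direction of the gene, with the element in capitals and 10 bases on each side.
GCLM: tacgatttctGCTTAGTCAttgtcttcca
AIFM2: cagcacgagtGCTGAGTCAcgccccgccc
SLC3A2: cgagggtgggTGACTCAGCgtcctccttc
They lie at chr1:93909446-93909474 on the minus strand (GCLM), chr10:70132829-70132857 on the minus strand (AIFM2) and chr11:62881652-62881680 on the plus strand (SLC3A2). In AIFM2 and SLC3A2 the match overlapped an AP-1 site (TGANTCA, present in 7.71% of windows). In all 5 motifs were searched. The CCAAT box (CCAAT, 34.6% of windows) occurred in SLC3A2, GCLC and GPX4. The E-box (CACGTG, 7.26%) occurred in GPX1 and the C/EBP-ATF response element (TGATGNAA, 3.62%) in SLC3A2. A match describes these letters and is not evidence of binding.

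Depth was 12599424 to 23594195 reads on genes per library, and the lowest count of any of the 9 genes was 225 reads (SLC7A11 in shRARRES2_2 replicate 2), so counting error was small beside the spread between libraries. RARRES2 itself checked the labels: it stood at 809, 483 and 469 CPM in shGFP and at 37.5 to 92.6 CPM in the 9 hairpin libraries (exact two-sided permutation test, p = 0.00455, the smallest that 220 splits allow). Some libraries stood apart within their group. shRARRES2_1 replicate 1 and shRARRES2_3 replicate 1 resembled each other (r = 0.981 across genes), had a read on 21217 and 20932 genes against 24065 to 27603 elsewhere, and carried normalization factors of 0.798 and 0.788 against 0.952 to 1.15. shGFP replicate 2 and shRARRES2_3 replicate 2 resembled each other as well (r = 0.982), with a median of 14.2 and 24.3 CPM over 20 mitosis genes against 62.4 to 272 CPM elsewhere. Of 14 keratinocyte markers LY6D and KRT1 were at 0 in every library, but the list's summed level was 590.1 CPM in shGFP replicate 2 against 57.8 to 177 CPM in the others. In bulk RNA, fewer cells of a type and less RNA per cell cannot be told apart. Renal carcinoma markers were present (only LRP2 of 8 stayed under 1 CPM), and 9 of 12 leukocyte markers and 6 of 10 endothelial markers stayed under 1 CPM throughout. shRARRES2_1 replicates 2 and 3 were nearly alike, although they differed by more than sampling noise (chi-square per degree of freedom 2.77, against 56.6 to 330.0 for other replicate pairs), and were kept as separate libraries.

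None of the 9 genes passed the test with any hairpin. In limma on log2(CPM + 1), with Benjamini-Hochberg adjustment over 15236 tested genes at 0.05, the count was 0 of 9 with shRARRES2_1, where 0.171% of all genes were called, 0 of 9 with shRARRES2_2 (0.0459%) and 0 of 9 with shRARRES2_3 (0.00656%). It was also 0 of 9 for the mean of the 3 hairpins (0.00656%) and 0 of 9 between the hairpins by the moderated F-test (0.249%). edgeR and DESeq2 on the recovered reads called 0 of 9 in each comparison as well. At an unadjusted p under 0.05, limma gave GSR with shRARRES2_1 (1 of 9, against 16.7% of all genes), GSS with shRARRES2_2 (1 of 9, against 13.7%), none with shRARRES2_3 (3.32%), GSS and GSR for the mean of the hairpins (2 of 9, against 12.6%) and GCLC and GCLM between hairpins (2 of 9, against 11%). The 3 hairpin comparisons share the shGFP libraries and are not independent of each other. All 9 genes passed the filter on low values.

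**Figure D1:**
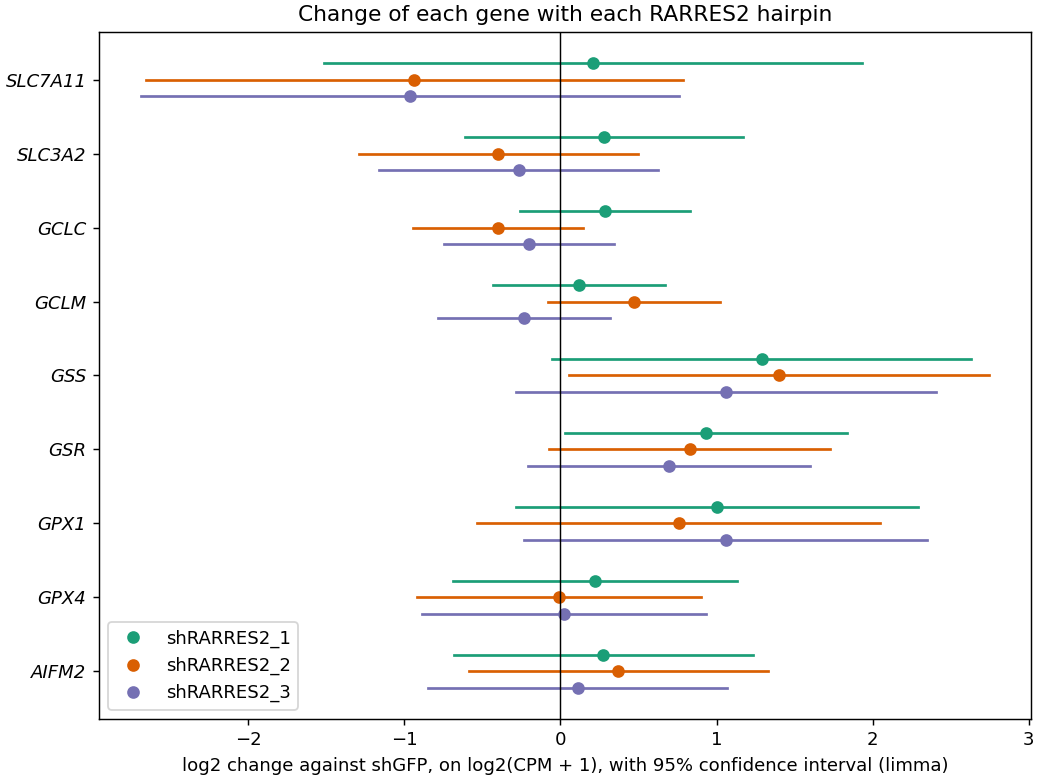
Log2 change of each of the 9 genes against shGFP on the log2(CPM + 1) scale (x axis), with points for the estimate with each hairpin and bars for the 95% confidence interval from limma. The intervals of GSS with shRARRES2_2 (0.06 to 2.74) and GSR with shRARRES2_1 (0.03 to 1.84) exclude 0 before adjustment, and the intervals of SLC7A11 are the widest.

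Of the cystine transporter, SLC7A11 had the widest range among the 9 genes and SLC3A2 a much narrower one. SLC7A11, its light chain and substrate-carrying subunit (ENSG00000151012.13, chromosome 4, 138164097 to 138242349, minus strand), stood at 76.1, 55.7 and 147 CPM in shGFP replicates 1 to 3. With shRARRES2_1 it was at 37.5, 155 and 164 CPM, with shRARRES2_2 at 53.8, 13.4 and 116 CPM, and with shRARRES2_3 at 19.7, 41.2 and 98.7 CPM. Every hairpin group overlapped the control, and the highest library exceeded the lowest 12.3-fold, against 4.02-fold for SLC3A2. The log2 changes were 0.21, -0.94 and -0.96 (SE 0.79 each; limma adjusted p = 0.897, 0.590 and 0.876). With shRARRES2_3 the 95% interval ran from -2.68 to 0.76, so neither a large fall nor a moderate rise could be told from no difference. Without the replicates 1 of shRARRES2_1 and shRARRES2_3, both low for this gene, the changes were 0.89 and -0.41 with those hairpins, again with no call. The change with shRARRES2_2 rested on its replicate 2 and was -0.11 without it. SLC7A11 shares 865 exonic bases with its antisense gene SLC7A11-AS1, which was at 0 to 3.63 CPM. Whether counting used strand is not stated.

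SLC3A2, the heavy chain that carries this and other amino acid transporters to the cell surface (ENSG00000168003.16, chromosome 11, 62856102 to 62888875, plus strand), did not follow its partner. The control libraries had 212, 244 and 441 CPM, and the shRARRES2_1 libraries 590.3, 276 and 250.4 CPM. The values were 193, 195 and 263 CPM with shRARRES2_2 and 300.5, 147 and 294 CPM with shRARRES2_3. The groups overlapped, and the highest library was shRARRES2_1 replicate 1, in which SLC7A11 was at its lowest for that hairpin. Log2 changes were 0.28, -0.40 and -0.27 (SE 0.41 each; limma adjusted p = 0.713, 0.656 and 0.899). Without replicate 1 of those groups the first turned to -0.11 and the last became -0.45. Over the 12 libraries, deviations of SLC7A11 and SLC3A2 from their group means had r = -0.06.

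The subunits of glutamate-cysteine ligase, the rate-limiting enzyme of glutathione synthesis, lay in opposite directions with shRARRES2_2, neither past the test. GCLC (ENSG00000001084.11, chromosome 6, 53497341 to 53616970, minus strand) stood at 35.0, 54.9 and 43.4 CPM in shGFP, 43.7, 59.7 and 58.7 CPM with shRARRES2_1, 30.7, 38.6 and 29.9 CPM with shRARRES2_2 and 32.8, 42.3 and 38.9 CPM with shRARRES2_3. GCLM (ENSG00000023909.9, chromosome 1, 93885205 to 93909456, minus strand) stood at 119, 148 and 176 CPM in shGFP, 131, 175 and 173 CPM with shRARRES2_1, 179.8, 212 and 217 CPM with shRARRES2_2 and 100.4, 124 and 152 CPM with shRARRES2_3. With shRARRES2_2 all 3 GCLM values lay above the control, while all GCLC groups overlapped it. The log2 changes of GCLC were 0.29, -0.40 and -0.20 with the 3 hairpins and those of GCLM 0.12, 0.47 and -0.23 (SE 0.25 each; limma adjusted p 0.422 to 0.882). Between hairpins, the moderated F-test in limma gave adjusted p = 0.441 for GCLC and 0.450 for GCLM (0.0461 and 0.0491 before adjustment). These 2 genes had the narrowest ranges of the 9, with the highest library 2.0-fold and 2.16-fold above the lowest. GCLC shares 536 exonic bases with the genes AL033397.2 and AL033397.1, which were at most 0.883 CPM.

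The ratio of GCLC to GCLM within a library removes what the 2 genes have in common in that library, such as its scaling. It was 0.294, 0.371 and 0.246 in shGFP, 0.335, 0.341 and 0.340 with shRARRES2_1 and 0.327, 0.342 and 0.256 with shRARRES2_3. With shRARRES2_2 it was 0.171, 0.182 and 0.138. All 3 shRARRES2_2 libraries thus lay below the other 9, with a mean of 0.164 ± 0.0231 (SD, n = 3). The means were 0.304 ± 0.0629 in shGFP, 0.339 ± 0.00333 with shRARRES2_1 and 0.308 ± 0.0462 with shRARRES2_3 (SD, n = 3 each). This ratio was chosen after the values had been seen, so it is a description with no test. When GCLM was set against every other tested gene in the same way, 7.62% of genes had a ratio below the other 9 libraries in all 3 shRARRES2_2 libraries. The ratios are of CPM values and are not corrected for gene length.

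**Figure D2:**
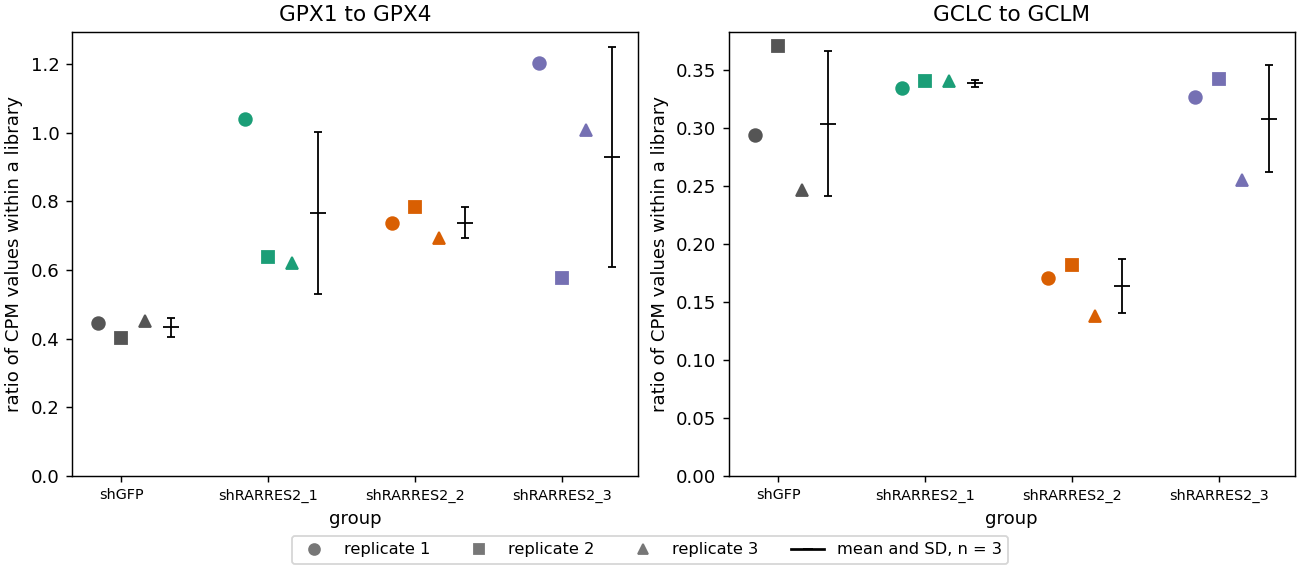
Ratio of CPM values within each library for GPX1 to GPX4 and for GCLC to GCLM (y axes, starting at 0), by group, with markers for the replicate number and bars for the mean and SD of 3 libraries. The 3 shGFP libraries lie lowest for GPX1 to GPX4 (0.400 to 0.452), and the 3 shRARRES2_2 libraries lie lowest for GCLC to GCLM (0.138 to 0.182).

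GSS, which joins glycine to gamma-glutamylcysteine in the last step of glutathione synthesis (ENSG00000100983.10, chromosome 20, 34928433 to 34956027, minus strand), had the largest estimated increases. The control libraries had 57.2, 26.5 and 46.8 CPM, and the shRARRES2_2 libraries 112, 115 and 107 CPM. With shRARRES2_1 they were 213, 73.0 and 69.5 CPM and with shRARRES2_3 215, 28.7 and 107 CPM. All libraries of shRARRES2_1 and shRARRES2_2 were above the control, and with shRARRES2_3 replicate 2 lay within it. Group means were 2.72, 2.55 and 2.69 times that of shGFP, and the log2 changes were 1.29, 1.40 and 1.06 (SE 0.62 each; limma adjusted p = 0.314, 0.352 and 0.876). For the mean of the hairpins the log2 change was 1.25 (95% interval 0.15 to 2.35, unadjusted p = 0.0287, limma adjusted p = 0.384). The SD of the 3 shRARRES2_2 libraries was 4.17 CPM, against 81.8 and 93.8 CPM in the other hairpin groups. The high values were in the replicates 1 that stood apart: without them the changes were 0.77 with shRARRES2_1 and 0.42 with shRARRES2_3. The low values were in shGFP replicate 2 and shRARRES2_3 replicate 2, the libraries low in mitosis genes, and without that pair the changes were 0.97, 1.09 and 1.53. The part of these libraries' traits in the result was not tested.

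GSR, which uses NADPH to reduce oxidized glutathione (ENSG00000104687.13, chromosome 8, 30678061 to 30727999, minus strand), also had its highest values in replicate 1 of shRARRES2_1 and of shRARRES2_3. It stood at 46.4, 49.1 and 62.0 CPM in shGFP, 149, 85.1 and 79.4 CPM with shRARRES2_1, 94.3, 89.6 and 95.4 CPM with shRARRES2_2 and 169, 41.9 and 85.8 CPM with shRARRES2_3. The first 2 hairpin groups were wholly above the control, whereas shRARRES2_3 replicate 2 was the lowest of all 12 libraries. The log2 changes were 0.93, 0.83 and 0.69 (SE 0.42 each; limma adjusted p = 0.288, 0.395 and 0.876), and 0.82 for the mean of the hairpins (95% interval 0.08 to 1.55, unadjusted p = 0.0323, limma adjusted p = 0.384). Without the replicates 1 of shRARRES2_1 and shRARRES2_3 the changes with these hairpins were 0.65 and 0.20. Without the replicates 2 of shGFP and shRARRES2_3 they were 0.89 and 1.15.

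Counted over the 9 genes, all 3 libraries were above all 3 shGFP libraries for 2 genes with shRARRES2_1 (GSS and GSR), where 17.0% of all tested genes were so placed. With shRARRES2_2 this held for 4 genes (GCLM, GSS, GSR and GPX1), against 16.4% of all genes, and with shRARRES2_3 for 0 genes, against 3.03%. No gene of the 9 had all 3 libraries below the control, against 15.0%, 11.7% and 3.63% of all genes. Same-numbered libraries of shGFP and shRARRES2_3 deviated together, so their differences were also read pair by pair. This matching by number is uncertain. Deviations of shGFP replicate 1 went more with shRARRES2_3 replicate 3 (r = 0.387) than with its replicate 1 (r = 0.272). GSS (log2 differences 1.89, 0.12 and 1.17) and GPX1 (2.32, 0.22 and 0.64) were higher in all 3 pairs, against 15.0% of all genes. SLC7A11 (-1.90, -0.43 and -0.57), GCLC (-0.09, -0.37 and -0.15) and GCLM (-0.24, -0.26 and -0.21) were lower in all 3, against 14.4%. With the replicate number as a block, limma called 0 of the 9 genes. The median log2 change over the 9 genes was 0.28, 0.37 and 0.02 with the 3 hairpins, and over all tested genes it was 0.04, 0.07 and 0.00.

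**Figure D3:**
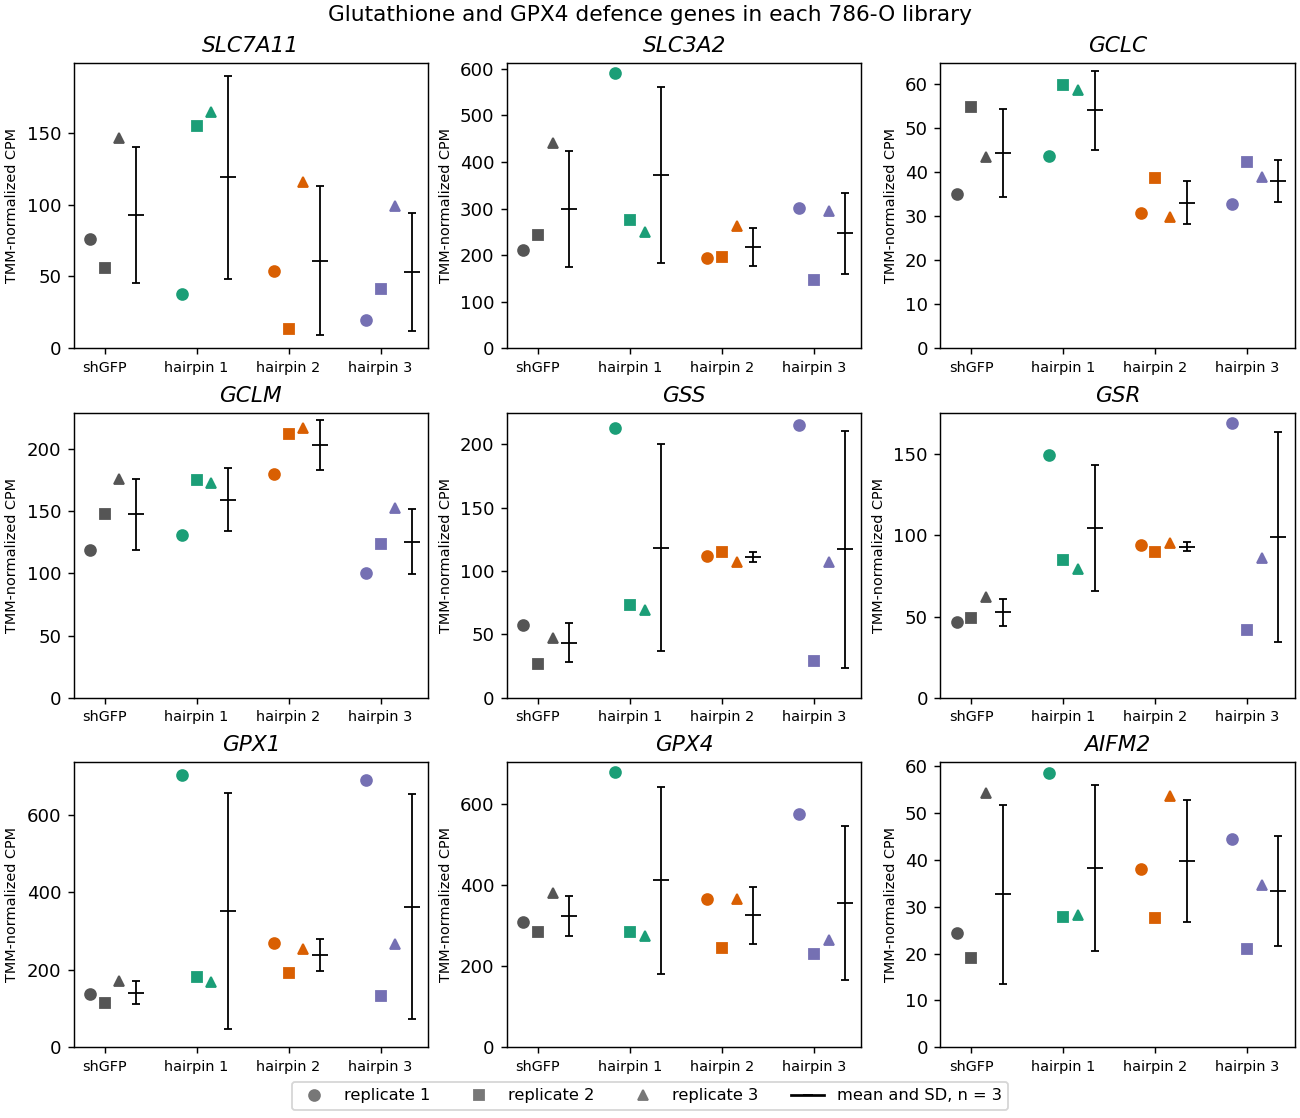
TMM-normalized CPM of each of the 9 genes in every library (y axes, starting at 0), by group, with markers for the replicate number and bars for the mean and SD of 3 libraries; hairpin 1, 2 and 3 are shRARRES2_1, shRARRES2_2 and shRARRES2_3. Replicate 1 of hairpins 1 and 3 stands far above the rest for GSS, GSR, GPX1 and GPX4 and is the lowest of its group for SLC7A11.

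GPX1, the cytosolic peroxidase of hydrogen peroxide and other soluble peroxides (ENSG00000233276.4, chromosome 3, 49357171 to 49358600, minus strand), reached its highest values in the same replicates 1. It stood at 138, 113 and 172 CPM in shGFP, 705, 182 and 169 CPM with shRARRES2_1, 269.9, 191 and 253 CPM with shRARRES2_2 and 691, 132 and 268 CPM with shRARRES2_3. Only the shRARRES2_2 libraries were all above the control. The log2 changes were 1.0, 0.76 and 1.06 (SE 0.59 each; limma adjusted p = 0.379, 0.557 and 0.876). They were 0.34 and 0.43 with shRARRES2_1 and shRARRES2_3 when the replicates 1 were left out. The level of GPX1 is uncertain because it has near-identical processed copies: GPX1P1 on chromosome X (13378735 to 13379340) was listed at 25.9 to 171 CPM and followed GPX1 with r = 0.998 over the 12 libraries, and GPX1P2 was at 0 in all of them. GENCODE 29 itself lists GPX1 as a polymorphic pseudogene.

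GPX4, the peroxidase that acts on lipid hydroperoxides within membranes (ENSG00000167468.16, chromosome 19, 1103926 to 1106791, plus strand), had a control mean of 324 ± 49.9 CPM and hairpin means of 412 ± 230.4, 325 ± 70.1 and 356 ± 189.7 CPM (SD, n = 3 each). The single shGFP libraries were at 309, 283 and 379 CPM. With shRARRES2_1 they were at 678, 285 and 273 CPM, with shRARRES2_2 at 366, 244 and 365 CPM and with shRARRES2_3 at 574, 229 and 265 CPM. Outside the replicates 1 of shRARRES2_1 and shRARRES2_3, every library lay between 229 and 379 CPM, and all groups overlapped. The log2 changes were 0.22, -0.01 and 0.02 (SE 0.42 each; limma adjusted p = 0.782, 0.995 and 0.992). The 95% interval for shRARRES2_2 ran from -0.92 to 0.90 and therefore holds sizeable changes in either direction. Without the replicates 1 the estimates with shRARRES2_1 and shRARRES2_3 were -0.20 and -0.38.

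Set against GPX4 in the same library, GPX1 was higher in each of the 9 hairpin libraries than in any of the 3 controls. The ratio was 0.445, 0.400 and 0.452 in shGFP (mean 0.433 ± 0.0283, SD, n = 3). It was 1.04, 0.639 and 0.620 with shRARRES2_1, 0.737, 0.782 and 0.694 with shRARRES2_2 and 1.20, 0.577 and 1.01 with shRARRES2_3. The 9 hairpin libraries thus ranged from 0.577 to 1.20. The hairpin means were 0.766 ± 0.237, 0.738 ± 0.0445 and 0.930 ± 0.321 (SD, n = 3 each). On the log scale these groups stood at 1.72, 1.71 and 2.06 times the control. The same placement was found for 1.16% of the other tested genes when set against GPX4. With the pseudogene reads added to GPX1, the ratios were 0.492 to 0.555 in shGFP and 0.715 to 1.5 with the hairpins. This is no separate check, because GPX1P1 followed GPX1 (r = 0.998) and its reads could hardly move the groups. Like the ratio of the ligase subunits, this one was chosen after the values had been seen and has no test.

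Per kilobase of exon, GPX4 was the highest of the 9 genes in shGFP (160.4 CPM per kb), followed by GPX1 (98.5), SLC3A2 (57.7), GCLM (27.2), GSR (14.0), SLC7A11 (9.62), GSS (7.04), AIFM2 (6.35) and GCLC (5.14). In the mean of each hairpin group GPX1 came before GPX4, at 246, 167 and 254 CPM per kb against 204, 161 and 176. With shRARRES2_1 this order came from replicate 1 alone, since replicates 2 and 3 had less GPX1 than GPX4 per kilobase. GPX1 was also below GPX4 in shRARRES2_2 replicate 3 (177.2 against 180.9) and in shRARRES2_3 replicate 2 (92.2 against 113.2). No hairpin group thus had the same order in all 3 libraries. The SD of each gene does not measure the spread of their difference, because the 2 genes moved together within groups (r = 0.967). In shGFP the last 3 genes in the order differ by less than the spread of GSS and AIFM2. Length here is the union of exons over all annotated transcripts, which understates the level of a gene whose expressed transcript is shorter. The order of the genes is uncertain to that degree.

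AIFM2, the coenzyme Q oxidoreductase that protects membranes without glutathione (ENSG00000042286.14, chromosome 10, 70098223 to 70132934, minus strand), had 24.3, 19.1 and 54.4 CPM in the control libraries and 58.7, 27.8 and 28.2 CPM in those of shRARRES2_1. It was at 38.0, 27.6 and 53.7 CPM with shRARRES2_2 and 44.5, 21.0 and 34.6 CPM with shRARRES2_3. The 4 groups overlapped, and the control alone spanned nearly the whole range. The log2 changes were 0.28, 0.37 and 0.11 (SE 0.44 each; limma adjusted p = 0.739, 0.699 and 0.958).

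The 9 genes fell into sets when their deviations from the group means were compared over the 12 libraries. GSS, GSR, GPX1 and GPX4 went together (r = 0.81 to 0.97), and SLC3A2 went with AIFM2 (r = 0.92) and with those 4 (0.73 to 0.82). GCLC went against GSS, GSR, GPX1 and GPX4 (r = -0.73, -0.54, -0.72 and -0.75). SLC7A11 and GCLM had r = 0.63, and so did GCLC and GCLM. These values are descriptions over 12 libraries that share their processing and scaling. The set of 4 is highest in the 2 replicates 1 that stood apart, in which genes with over 8 kb of exon sequence had a median deviation of -0.35 and -0.26 and those of 2 to 4 kb one of 0.16 and 0.14, against -0.05 and -0.07 under 2 kb and -0.05 and -0.03 from 4 to 8 kb. Counted over all annotated transcripts, GPX1, GPX4 and GSR have 1430, 2019 and 3760 exonic bases. GSS has 6174, and GCLC and SLC7A11 have 8646 and 9645. The part of length and of these libraries in the sets was not tested.

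**Figure D4:**
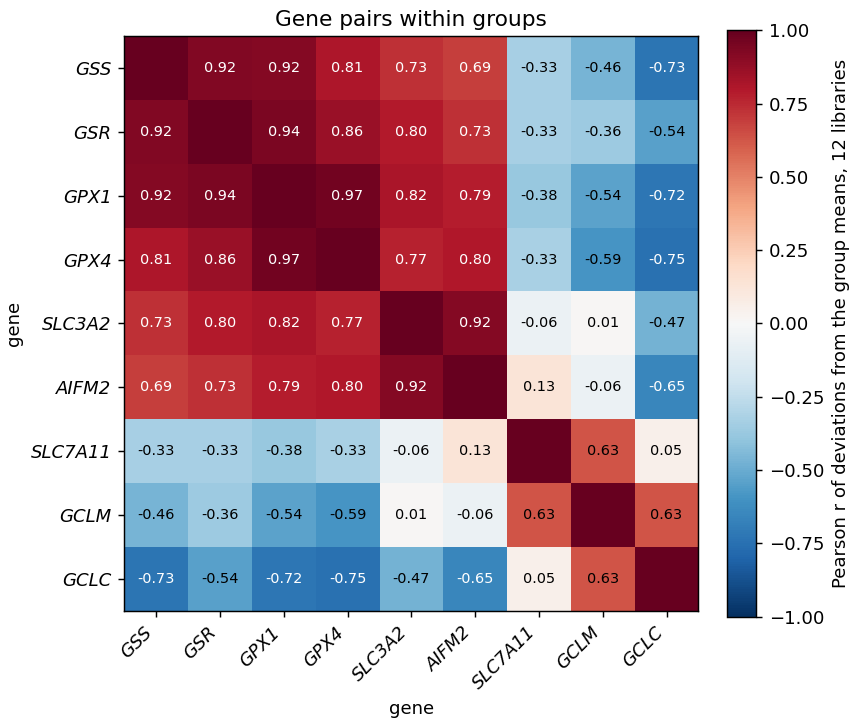
Pearson r between each pair of the 9 genes over the 12 libraries, computed on deviations of log2(CPM + 1) from the group means and printed in each cell (both axes are genes). GSS, GSR, GPX1, GPX4, SLC3A2 and AIFM2 form a block with r of 0.69 to 0.97, while GCLC is negative with every gene of that block.

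**Figure D5:**
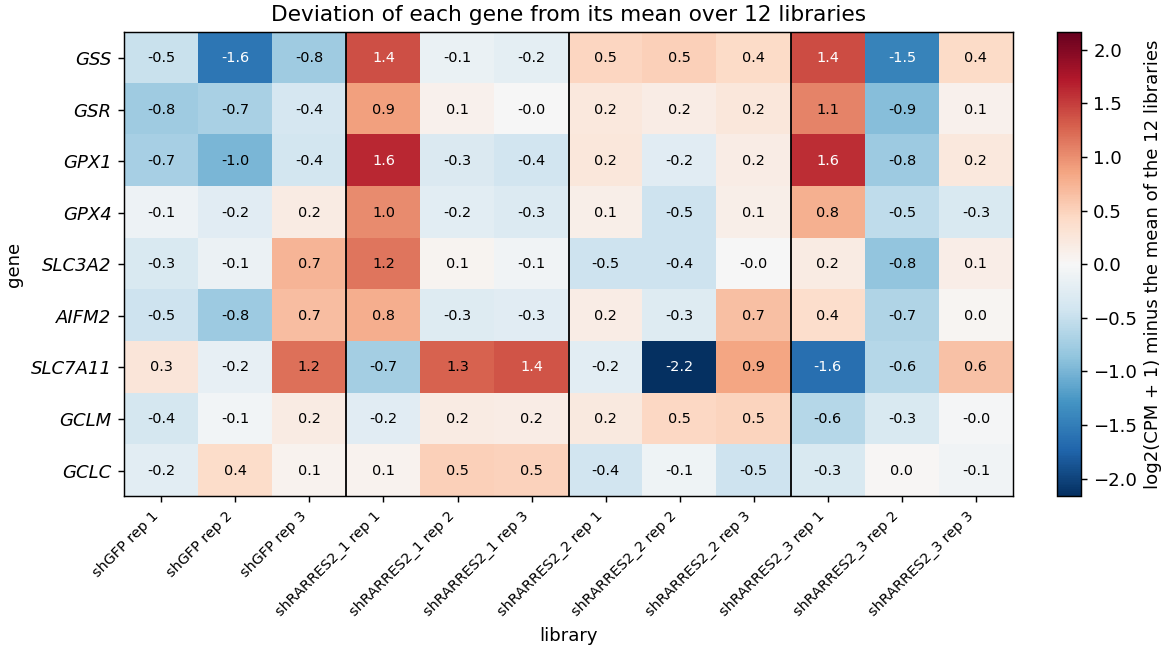
Deviation of log2(CPM + 1) of each gene (rows) from its mean over the 12 libraries (columns, in groups separated by lines), with red above and blue below the mean. The columns of shRARRES2_1 replicate 1 and shRARRES2_3 replicate 1 are red for GSS, GSR, GPX1 and GPX4 and blue for SLC7A11 and GCLM, and those of shGFP replicate 2 and shRARRES2_3 replicate 2 are blue for most genes.

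Over all 12 libraries, group differences included, the tested gene most like each of the 9 was ANTXR2 for SLC7A11 (r = 0.939), UCKL1 for SLC3A2 (0.878), FAM177A1 for GCLC (0.935), ZDHHC6 for GCLM (0.940), MSRB1 for GSS (0.987), GPR137 for GSR (0.985), the pseudogene GPX1P1 for GPX1 (0.998), FLOT2 for GPX4 (0.967) and NIF3L1 for AIFM2 (0.910). MSRB1 is itself a selenoprotein that repairs oxidized methionine, but AP2M1 (r = 0.985) and ALDH16A1 (r = 0.983) came almost as close to GSS.

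Genes around the pathway also gave few calls, as did all tested genes (0.171%, 0.0459% and 0.00656% called with the 3 hairpins). A count of 0 therefore does not set any list below apart from other genes. The enzymes that supply NADPH, which GSR needs, had 0 of 14 called with any hairpin; 12 of 14 changes were positive with each, and the medians were 0.57, 0.55 and 0.29. MTHFD1, an enzyme of folate metabolism, had a control mean of 53.3 ± 14.8 CPM, and the hairpin means were 165 ± 63.6, 131 ± 62.6 and 130.5 ± 104 CPM (SD, n = 3 each; limma adjusted p = 0.242, 0.364 and 0.876). It was highest in the same 2 replicates 1, at 239 and 244 CPM.

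In the lists closest to glutathione itself, limma again called 0 genes with every hairpin. The list of glutathione transferases and glutaredoxins (19 tested) had medians of 0.23, 0.20 and 0.07. Breakdown and export (14 tested) had medians of -0.06, 0.24 and 0.12. ABCC1, a glutathione-dependent export pump, averaged 140.0 ± 20.0 CPM in the controls and 65.5 ± 15.4 CPM under shRARRES2_1 (log2 change -1.10, limma adjusted p = 0.124), with no overlap between the 3 libraries of each (15.0% of all genes were so placed with that hairpin). Cysteine supply (13 tested) had medians of -0.09, 0.13 and 0.02. Of the other glutathione peroxidases GPX3 and GPX8 were tested, with GPX8, of the endoplasmic reticulum, at 52.9 to 75.0 CPM in the group means. GPX2, GPX5, GPX6 and GPX7 stayed under 1 CPM in all libraries.

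Selenoproteins and other protectors of membranes gave the same count. The machinery that inserts selenocysteine (10 tested) had medians of 0.20, -0.12 and 0.06, and the other selenoproteins (14 tested) 0.42, 0.32 and 0.30, with 0 calls. SELENOT, a selenoprotein of the endoplasmic reticulum, stood at 61.0, 68.8 and 74.3 CPM in shGFP and at 87.1 to 114 CPM in all 9 hairpin libraries, without overlap (0.788% of all genes were so placed). Its log2 changes were 0.38, 0.71 and 0.43 (limma adjusted p = 0.332, 0.219 and 0.876). Like MTHFD1 and ABCC1 above, SELENOT was picked for a small limma p within its list, so its placement is not separate support. Other ferroptosis suppressors (19 tested) had medians of 0.33, 0.43 and 0.25 and 0 calls. ACSL4, which loads polyunsaturated fatty acids into membranes, stood at 210.2 ± 45.2 CPM in shGFP and 180.1 to 244 CPM in the hairpin means (limma adjusted p = 0.673, 0.757 and 0.975).

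Regulators of these genes had 0 of 12 called, with medians of -0.11, -0.28 and -0.23. NFE2L2, the gene of NRF2, stood at 78.6 ± 16.9 CPM in shGFP and at 78.7, 92.0 and 59.4 CPM in the hairpin means (limma adjusted p = 0.984, 0.652 and 0.876). ATF4, which drives SLC7A11 under amino acid shortage, had a control mean of 325 ± 87.3 CPM and hairpin means of 352, 346 and 311 CPM (limma adjusted p = 0.883, 0.956 and 0.932). Targets of ATF4 outside the 9 genes (19 tested) had medians of -0.31, -0.50 and -0.17 and 0 calls.

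NRF2 targets outside the 9 genes (22 tested) had 0 calls against shGFP, with medians of 0.71, 0.35 and 0.30. Between hairpins they had 1 call, HMOX1, the heme-degrading enzyme, where 0.249% of all genes were called. HMOX1 had 71.9, 167 and 62.8 CPM in the controls and 83.7, 38.6 and 49.0 CPM under shRARRES2_3. It was at 503, 336 and 323 CPM with shRARRES2_1 and 497, 238 and 197 CPM with shRARRES2_2. These 2 groups were wholly above the others, and 17.0% and 16.4% of all genes lay wholly above shGFP with these hairpins. HMOX1 was named because it was called, so its placement is not separate support. The limma F-test between hairpins gave adjusted p = 0.0327, and against shGFP the log2 changes were 2.05, 1.64 and -0.74 (limma adjusted p = 0.101, 0.214 and 0.876). The call between hairpins ended in 8 of 12 fits that left out 1 library, with adjusted p up to 0.165.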

How the data were processed

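Messenger RNA was profiled in 12 libraries of 786-O cells, with groups read from the titles. The authors deposited a signal scaled for depth (CPM after TMM normalization). Their tools, per the submitters' processing notes, included STAR 2.5.2, Trim Galore 0.6.1, edgeR and CASAVA, on hg38 (GRCh38). Neither the counting annotation nor its strand setting is given in the sources used here. The planned test, written for unscaled CPM, was kept. Dividing by the value of 1 read gave whole reads for 100% of values (tolerance 1e-06).

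Genes with at least 1 CPM in 3 libraries (15236) were fitted as log2(CPM + 1) with limma 3.58.1 in R 4.3.3 on all 12 libraries, a trend of the variance on the mean, and adjustment by Benjamini and Hochberg at 0.05, after it was tested on simulated data. The 1 CPM pseudocount understates changes of low genes. Alternatives covered pseudocounts, filters, scalings, spread, thresholds, a replicate block, edgeR 4.0.16 and DESeq2 1.42.0 on recovered reads, and libraries left out or averaged.

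The 9 genes and the gene lists were chosen with earlier results of these data known. The rule named all 9 genes, RARRES2, NFE2L2, ATF4, ACSL4 and up to 4 genes per list (called first, then by smallest p); the text shows some of these. Deviations of same-numbered libraries went together for shGFP with shRARRES2_3 (r = 0.272 to 0.604) and shRARRES2_1 with shRARRES2_3 (0.413 to 0.754), but not for the other pairs of groups. Some differently numbered libraries went together as much. These include shGFP replicate 1 with shRARRES2_3 replicate 3 (r = 0.387) and shRARRES2_1 replicate 3 with shRARRES2_3 replicate 2 (r = 0.482). Pairing by number is therefore not established, and the labels name no shared batch. Gene coordinates and exon lengths are from GENCODE 29 (58261 of 58381 identifiers matched), and promoter windows from RefSeq.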

Additional observations from a re-analysis of the deposited data

Results flagged for a closer look

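HMOX1 differed between the 3 hairpins (limma F-test, adjusted p = 0.0327), high with shRARRES2_1 and shRARRES2_2 and not with shRARRES2_3. Among the HIF targets used as a reference list, NDRG1 (adjusted p = 0.0152) and PLIN2 (adjusted p = 0.0464) also differed between hairpins in the limma F-test. None of these 3 calls held in every setting. In the main fit the F-test called 0.249% of all genes. The F-test called 0 genes with only the hairpin groups in the fit, and 0 with shRARRES2_1 replicates 2 and 3 averaged.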

How the results depend on the processing

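The count of called genes among the 9 stayed at 0 for every comparison under all alternatives that kept an adjusted threshold. The lowest adjusted p was 0.0528, for GSS in the mean of the hairpins without shRARRES2_3 replicate 2. At an unadjusted p under 0.05 the counts were 1 (shRARRES2_1), 1 (shRARRES2_2), 2 (mean of hairpins) and 2 (between hairpins). Over all genes, called totals varied far more: 26 with shRARRES2_1 (3 to 497 across settings), 7 with shRARRES2_2 (1 to 345), 1 with shRARRES2_3 (1 to 16), 1 for the mean (1 to 358) and 38 between hairpins (0 to 590); the cause was not tested. The replicate block left 0 of the 9 genes called in each comparison, as did the block in a fit of shRARRES2_3 and shGFP alone, and it changed no call of RARRES2 or HMOX1. Leaving out 1 library moved several uncalled changes without turning them: SLC7A11 with shRARRES2_2 from -1.62 to -0.11, GPX1 with shRARRES2_1 from 0.34 to 1.36, and GSS, GSR and GPX1 with shRARRES2_3 from 0.42 to 1.85, 0.20 to 1.20 and 0.43 to 1.62. The call of HMOX1 between hairpins also ended in edgeR (adjusted p = 0.0897), with shRARRES2_1 replicates 2 and 3 averaged (0.0979), without a filter (0.0735), with only the hairpin groups in the fit (0.0656) and without the replicates 2 of shGFP and shRARRES2_3 (0.0565). Only uncalled changes turned sign, in 37 cases. With shRARRES2_1 replicates 2 and 3 averaged, SLC7A11 with shRARRES2_1 was -0.14. Without the replicates 2 of shGFP and shRARRES2_3, SLC7A11 and AIFM2 with shRARRES2_1 were -0.10 and -0.024, and GCLC for the mean 0.030. Without the replicates 1 of shRARRES2_1 and shRARRES2_3 (added after seeing the data), SLC3A2, GPX4 and AIFM2 with shRARRES2_1 were -0.11, -0.20 and -0.072, GPX4 and AIFM2 with shRARRES2_3 -0.38 and -0.12, and GPX4 for the mean -0.20. With a common total, GPX4 was -0.084 with shRARRES2_3 and -0.016 for the mean. Leaving out 1 library gave ranges of -0.16 to 0.89 (SLC7A11), -0.11 to 0.60 (SLC3A2), -0.030 to 0.25 (GCLM), -0.20 to 0.45 (GPX4) and -0.072 to 0.71 (AIFM2) with shRARRES2_1; -0.10 to 0.19 (GPX4) with shRARRES2_2; -0.48 to 0.068 (SLC3A2), -0.38 to 0.28 (GPX4) and -0.19 to 0.54 (AIFM2) with shRARRES2_3; and -0.34 to 0.19 (SLC3A2), -0.26 to 0.056 (GCLC), -0.029 to 0.25 (GCLM), -0.063 to 0.20 (GPX4) and -0.047 to 0.68 (AIFM2) for the mean.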
